A study of Homo sapiens with 18 samples.

Results

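ONECUT2 overexpression in LNCaP cells was compared with LNCaP control cells on 6 expression arrays, 3 of cells carrying the ONECUT2 vector and 3 of control cells, out of 18 arrays in the series. The arrays were chosen by their titles, and every gene with a single-symbol probe set over a log2 value of 4 on at least 3 of the 18 arrays was tested, which gave 12159 genes of 19775. LNCaP is an established line from a lymph node metastasis of prostate carcinoma that makes prostate-specific antigen. The overexpression cells received a lentiviral vector with the full-length ONECUT2 coding sequence followed by puromycin selection into a stable line. The labels give the treatment of the control cells as vehicle, and do not say whether those cells received an empty vector or puromycin. They also give no time after transduction. Nothing says that replicates were grown separately, and the tests then see only array-to-array spread, possibly technical. The other 12 arrays are of 22Rv1, another prostate carcinoma line: 3 each of ONECUT2 overexpression, ONECUT2 shRNA, scramble shRNA and control.

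ONECUT2 belongs to the ONECUT family of transcription factors, which bind DNA through 1 cut domain and a divergent homeodomain and act in the development of liver, pancreas and neurons. LNCaP cells are kept in the luminal epithelial state by hormone-driven transcription together with pioneer factors such as FOXA1, and their secretory genes report on that state. Mitotic and replication genes are known to be controlled as sets, by E2F factors and by the DREAM and MuvB complexes. Values below are log2 expression values after GCRMA, and a gene's values on the 3 arrays of a group are given for replicates 1, 2 and 3. A change is a difference of log2 values, overexpression minus control, with its standard error from limma. Genes with a Benjamini-Hochberg adjusted p under 0.05 over all genes tested are called higher or lower. Where the 3 arrays of the lower group read under 4, near background, only a lower bound on the fold, counted from 4, is given.

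The overexpression arrays differed among themselves more than the control arrays did. Over all probe sets, overexpression replicates 2 and 3 correlated at 0.9950 with each other, and replicate 1 at 0.9746 and 0.9810 with them, while the controls correlated at 0.9970 to 0.9975. With the controls the mean correlation was 0.9691 for replicate 1, 0.9480 for replicate 2 and 0.9528 for replicate 3. The median SD of a gene was 0.295 in overexpression and 0.105 in control. The main model pools the spread over all 18 arrays, so errors here can be too small, most for genes that differ among the overexpression arrays. For KLK3, described below, the standard error was 0.67 in the main model and 1.00 with the 6 LNCaP arrays alone. Its limma adjusted p was 4.94e-07 and 0.00264. For CENPK, alike on those arrays, the standard errors were 0.18 and 0.16. With the 6 LNCaP arrays alone, 5403 genes were called in place of 7557, and 5388 were called in both fits. RNA integrity was read from platform control probe sets. For beta-actin, the 3' value exceeded the 5' value by 2.85 ± 0.56 in overexpression and 2.94 ± 0.25 in control (SD, n = 3 each, exact two-sided permutation p = 0.8, smallest possible 0.1). For GAPDH the same quantity was -0.68 ± 0.07 in overexpression and -0.68 ± 0.07 in control (exact permutation p = 0.9). The control probe sets of ribosomal RNA differed more: the 3' one read 11.21, 11.35 and 11.33 in overexpression, against 10.60, 10.66 and 10.85 in control, without overlap. The 5' one averaged 12.90 ± 0.27 in overexpression and 13.26 ± 0.31 in control, and the middle one 9.96 ± 0.26 in overexpression and 10.55 ± 0.40 in control (SD, n = 3 each), both with overlap. The part of this in the results was not tested.

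The line label was checked with 34 genes that read over 9 on all 12 of the 22Rv1 arrays and under 4 on all 3 LNCaP controls. On overexpression replicates 1, 2 and 3, 15, 15 and 29 of them read over 4, and their median was 3.81, 3.79 and 5.16, beside 10.3 in 22Rv1. The control values, with medians of 3.04, 3.21 and 3.16, are low by the choice of these genes, so only the overexpression arrays can be set against each other. PNMA8A, of the PNMA family of retrotransposon-derived genes, read 2.39, 3.28 and 7.87 on the overexpression arrays, against 2.50, 2.39 and 2.45 in control. Replicate 3 thus carried these genes above the other arrays, while their median there lay far below the 22Rv1 level. KISS1R, the kisspeptin receptor, had the highest value of the 34 on replicate 3 and read 6.57, 9.02 and 9.23 in overexpression, against 3.70, 3.25 and 3.73 in control, so it was high on all 3 overexpression arrays. A second set took 63 genes over 9 on the 3 22Rv1 overexpression arrays and under 4 on all 3 LNCaP controls. Of these, 32, 34 and 57 read over 4 on overexpression replicates 1, 2 and 3, with medians of 4.01, 4.15 and 5.61. That choice can take in genes higher in 22Rv1 overexpression than in 22Rv1 control. Of the 12159 genes, 93 read over 4 on replicate 3 alone among the 6 LNCaP arrays, and 51 of those were over 4 on all 22Rv1 arrays. For replicates 2 and 1 these counts were 11 of 50 and 25 of 55. Over 4 on all 22Rv1 overexpression arrays were 86 of the 93, 26 of the 50 and 42 of the 55. A gene over 4 on 1 LNCaP array passed the filter only through 22Rv1 arrays, which raises these shares on all 3. Whether RNA or cells of the other line contributed was not tested, and 6889 genes were called without replicate 3. The leading counts below were little moved by leaving it out: 104 kinetochore and spindle genes, 66 replication genes and 41 secretory genes were then lower, and 31 interferon-stimulated genes, 31 p53 targets and 15 histones were higher. On replicates 1 and 2, which stay in that fit, 15 of the 34 genes also read over 4. These counts therefore cannot decide whether the other line contributed.

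**Figure D1:**
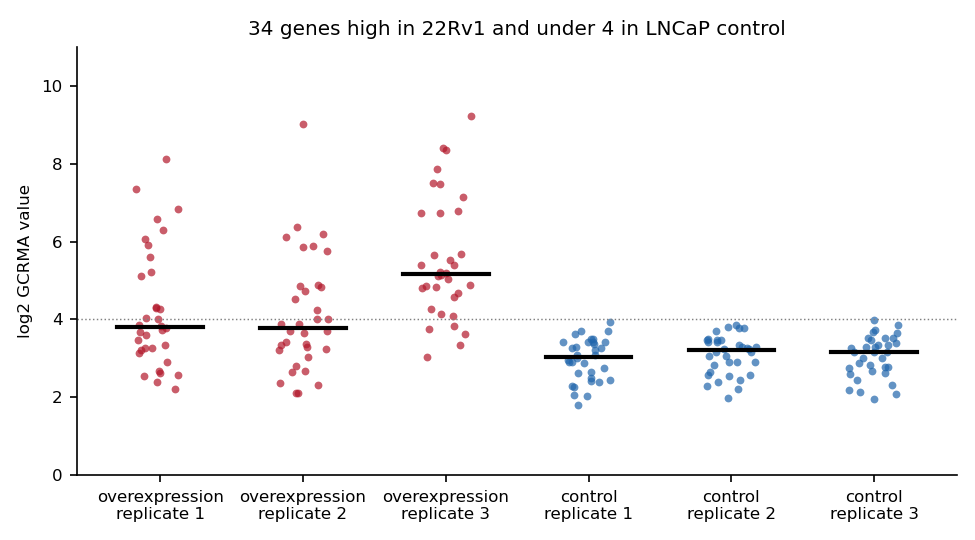
Log2 GCRMA values (y axis) of 34 genes over 9 on all 22Rv1 arrays and under 4 on all LNCaP controls, on each LNCaP array (x axis, overexpression in red, control in blue). Points are genes, black bars are medians and the dotted line is at 4. The median is 5.16 on overexpression replicate 3, against 3.81 and 3.79 on replicates 1 and 2, and the controls are under 4 by the choice of genes.

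Against this background 7557 of 12159 genes were called (62.2%), 4150 higher (34.1%) and 3407 lower (28.0%). At least a 2-fold change was seen in 3093 of them, 1653 higher and 1440 lower. With the LNCaP arrays alone 44.4% were called, 24.4% higher and 20.1% lower. The 3 overexpression arrays lay on 1 side of the 3 controls in 58.2% of genes, called or not. A share of called members in a gene list near these shares says nothing about the list. The lists were chosen with earlier results of these data known, so a share far from these is a description and no test. The median change of all genes tested was 0.09.

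ONECUT2 is read by 5 probe sets. The brightest of them represents ONECUT2 here and read 7.23, 7.31 and 7.28 in overexpression, against 6.58, 6.53 and 6.72 in control, a rise of 0.66 ± 0.16 (adjusted p = 0.00153). Its 3 overexpression arrays were alike. The probe set that rose most read 5.23, 7.17 and 7.43 in overexpression, against 2.99, 2.74 and 3.04 in control, so replicate 1 carried less of this signal than replicates 2 and 3. Another probe set read 6.53, 6.10 and 6.37 in overexpression, against 5.86, 5.85 and 5.71 in control (0.53 ± 0.15 higher, adjusted p = 0.0097), a call lost with the LNCaP arrays alone (adjusted p = 0.0914), and the other two were not called (0.11 ± 0.12 and 0.23 ± 0.23, adjusted p = 0.561 and 0.5). Whether these probe sets lie in the coding sequence that the vector carries is not given in the sources used here. CUX2, a cut homeobox factor of upper-layer cortical neurons, read 7.99, 7.54 and 8.34 in overexpression, against 3.66, 4.04 and 3.86 in control (rise of 4.11 ± 0.18, adjusted p = 8.91e-12). CUX1, a broadly expressed cut factor, fell by 0.60 ± 0.16 (adjusted p = 0.00347).

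Luminal secretory genes fell on the overexpression arrays. Of 13 luminal markers 8 were lower, 2 higher and 3 not called. KLK3, which encodes prostate-specific antigen, read 9.13, 5.08 and 5.51 in overexpression, against 13.26, 13.25 and 13.25 in control (fell by 6.68 ± 0.67, adjusted p = 4.94e-07). Replicate 1 kept the most KLK3 of the 3 overexpression arrays, and the groups did not overlap. KLK2, a neighbouring kallikrein that activates prostate-specific antigen, read 6.30, 3.18 and 3.41, against 11.39, 11.24 and 11.08 in control (fell by 6.94 ± 0.52, adjusted p = 1.22e-08). ACP3, prostatic acid phosphatase, read 4.38, 2.81 and 2.83, against 8.44, 7.62 and 8.003 in control (fell by 4.68 ± 0.31, adjusted p = 1.48e-09). On replicates 2 and 3 both of these genes were under 4. TMPRSS2, a membrane serine protease, read 4.92, 4.26 and 4.10, against 9.05, 9.22 and 9.29 in control (fell by 4.76 ± 0.16), with all 3 overexpression arrays close to background. FOLH1, prostate-specific membrane antigen, read 5.14, 2.88 and 3.10, against 6.58, 7.01 and 6.46 in control (fell by 2.98 ± 0.39). STEAP2, a metalloreductase, read 11.19, 8.01 and 8.94, against 12.56, 12.54 and 12.65 in control, and was least lowered on replicate 1. TRPM8, a cation channel, was at least 4.05-fold lower (adjusted p = 3.25e-10), and SLC45A3, prostein, fell by 2.69 ± 0.21. In 22Rv1 control TMPRSS2 averaged 3.78 and FOLH1 4.86, while KLK3 averaged 7.31, KLK2 9.50 and STEAP2 11.5.

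Epithelial structure genes went both ways, and those among the luminal markers did not fall with the secretory ones. EPCAM, an epithelial adhesion protein, read 12.96, 13.12 and 13.24 in overexpression, against 12.31, 12.16 and 12.32 in control (rise of 0.84 ± 0.08, adjusted p = 2.2e-07). KRT8, a simple epithelial keratin, read 10.21, 11.06 and 10.75, against 8.92, 9.32 and 9.19 in control (rise of 1.53 ± 0.23). Both lay above all controls on every overexpression array. CDH1, E-cadherin, read 12.39, 12.49 and 12.67, against 12.61, 12.55 and 12.61 in control, and KRT18 differed by 0.14 ± 0.09 and the prostate homeobox factor HOXB13 by -0.29 ± 0.17 (adjusted p = 0.334, 0.193 and 0.143). Of 3 keratins tested 1 was higher and 1 lower: KRT19 read 1.57, 1.71 and 1.81, against 4.63, 4.27 and 4.07 in control, at least 1.25-fold lower. Of 16 junction genes 4 were higher and 5 lower, beside 34.1% and 28.0% of all genes tested. Among the lower ones TJP1 fell by 1.44 ± 0.20 and PKP3 by 1.29 ± 0.16. The basal keratins KRT5, KRT14 and KRT15 read under 4 on every LNCaP array. In a wider basal list 4 genes were tested, of which SFN was called higher, a call lost with the LNCaP arrays alone (adjusted p = 0.0977), and S100A2 lower (3.597, 3.41 and 3.51 in overexpression, against 4.72, 5.17 and 4.57 in control). Without overexpression replicate 1, 3 of the 4 were lower. Leukocyte and endothelial markers were over 4 on no overexpression array (0 of 6), and 1 of them was over 4 on at least 1 control array. Of 4 neuroendocrine markers 0 were over 4 on all overexpression arrays and 1 on at least 1 of them. The mean level of the 8 stromal markers was 4.49 to 4.54 on the overexpression arrays and 4.15 to 4.26 on the control arrays, and 2 of the 8, COL1A1 and ACTA2, were over 4 on every array of each group. COL1A1 was the member called higher, while COL3A1 and LUM, both under 4 on all LNCaP arrays, were called lower, LUM not with the LNCaP arrays alone (adjusted p = 0.0941).

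**Figure D2:**
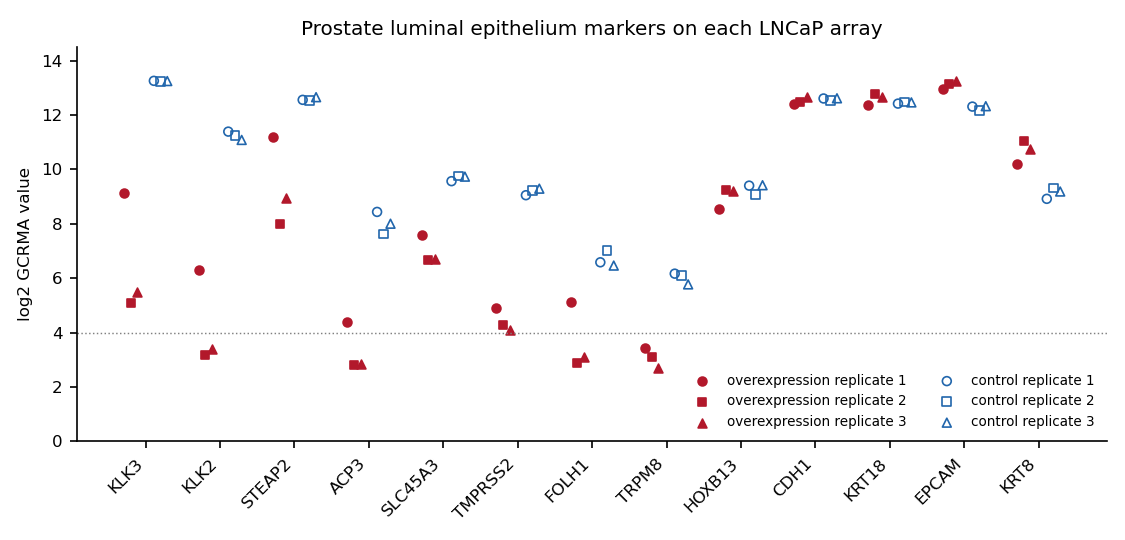
Log2 GCRMA values (y axis) of 13 prostate luminal markers (x axis) on each array, overexpression as filled red symbols and control as open blue symbols, with circles, squares and triangles for replicates 1, 2 and 3. The dotted line is at 4. The first 8 genes are lower on the overexpression arrays, KLK3 with replicate 1 at 9.13 above the other overexpression arrays, while HOXB13, CDH1 and KRT18 were not called and EPCAM and KRT8 were higher.

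A wider list of prostate secretory and hormone-responsive genes went the same way: 43 of 51 tested were lower and 3 higher, with a median change of -2.35, and 37 lower and 2 higher with the LNCaP arrays alone. All 12 membrane proteins and enzymes tested were lower, as were 9 of 11 genes grouped as secreted proteins. That group includes SPDEF, a transcription factor that is also counted among the luminal factors below. CENPN, a centromere protein gene, is counted among the other hormone-responsive genes and fell by 5.43 ± 0.42. INPP4B, an inositol phosphatase, read 3.65, 2.59 and 2.89 in overexpression, against 8.30, 8.26 and 8.37 in control, at least 19.9-fold lower on arrays that did not overlap. NDRG1, a differentiation gene, read 6.29, 6.80 and 6.60, against 9.17, 9.33 and 9.46 in control (fell by 2.76 ± 0.15), and here replicate 1 was the lowest. FKBP5, a hormone-induced co-chaperone, fell by 2.45 ± 0.10, and MSMB, a major seminal plasma protein, was at least 6.12-fold lower. The UGT2B genes inactivate steroid hormones by adding glucuronic acid. UGT2B28 read 11.58, 4.54 and 6.48 in overexpression, against 11.23, 11.15 and 11.31 in control. UGT2B15 read 12.19, 6.29 and 7.801, against 12.14, 11.92 and 11.87 in control. UGT2B17 read 9.05, 1.75 and 3.73, against 9.91, 9.73 and 9.40 in control. In all of these, replicate 1 stayed at or near the control level while replicates 2 and 3 were far below it. With the LNCaP arrays alone their calls were lost (adjusted p = 0.109, 0.0997 and 0.0564), and near-identical family members may share these probes.

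Luminal transcription factors split, with 10 of 24 lower and 7 higher, and 11 higher without overexpression replicate 1. SPDEF, an Ets factor of secretory epithelium, read 5.10, 5.07 and 4.61 in overexpression, against 9.46, 9.64 and 9.77 in control (fell by 4.69 ± 0.15, adjusted p = 2.42e-13), alike on the 3 arrays. CREB3L4, a membrane-bound bZIP factor of prostate, read 7.87, 6.80 and 6.81, against 11.67, 11.88 and 11.80 in control (fell by 4.62 ± 0.22). FOXA1, the forkhead pioneer factor, read 10.99, 7.96 and 8.41, against 12.14, 12.10 and 12.19 in control (fell by 3.02 ± 0.50, adjusted p = 8.46e-05), with a much smaller fall on replicate 1. ETV1, an Ets factor that LNCaP cells express from a rearranged locus, read 9.87, 3.95 and 5.26, against 10.998, 10.56 and 11.03 in control (fell by 4.50 ± 0.96, adjusted p = 0.000811), again least on replicate 1. RUNX2, the osteoblast runt factor, read 3.39, 2.62 and 3.01, against 9.79, 8.45 and 8.76 in control, at least 32.0-fold lower. GATA3, a factor of luminal differentiation, read 4.56, 5.40 and 5.70, against 3.74, 3.92 and 3.34 in control, at least 2.33-fold higher. IRX3, an Iroquois homeobox factor, rose by 1.36 ± 0.10, with 9.93, 10.11 and 9.99 against 8.67, 8.64 and 8.64 in control.

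Among 26 epithelial surface and junction genes 10 were higher and 8 lower, shares near those of all genes. CLDN8, a tight junction claudin, was under 4 on all overexpression arrays (3.04, 2.76 and 2.77, against 7.62, 7.497 and 7.62 in control), at least 11.9-fold lower. TM4SF1, a tetraspanin-like surface protein, read 2.71, 2.50 and 2.76, against 11.17, 10.78 and 11.03 in control. OCLN, occludin, read 12.67, 12.12 and 12.08, against 10.97, 10.65 and 10.80 in control (rise of 1.48 ± 0.13). CD24, a mucin-like surface protein, read 9.58, 10.25 and 10.23, against 6.57, 6.48 and 6.54 in control (rise of 3.49 ± 0.21, adjusted p = 5.88e-10). AGR2, a disulfide isomerase of secretory cells, read 7.46, 2.47 and 3.16, against 8.38, 7.84 and 8.04 in control (fell by 3.72 ± 0.83, adjusted p = 0.00112), with much the smallest fall on replicate 1.

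Cell division genes fell almost without exception. Of 110 kinetochore, spindle and mitosis genes tested, 105 were lower and 1 higher, with a median change of -3.78. With the LNCaP arrays alone 101 were lower and 0 higher. The median was -3.65, -3.81 and -3.90 on overexpression replicates 1, 2 and 3, least low on replicate 1. By role the gap was wider for cytokinesis, with -4.38, -6.22 and -5.39. Spindle motors and microtubule regulators went the other way, with -4.16, -3.82 and -3.75, and the spindle checkpoint was level, with -3.09, -3.01 and -3.15. Fewer dividing cells and less RNA per dividing cell cannot be told apart in bulk RNA.

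The outer kinetochore, which holds microtubules, had 8 of 10 genes lower (median -4.62). SPC25, of the NDC80 complex, read 3.44, 3.22 and 2.21 in overexpression, against 9.54, 9.60 and 9.39 in control, at least 45.5-fold lower. All 16 centromere genes were lower: CENPK, of the constitutive centromere network, read 4.95, 4.83 and 4.59, against 10.43, 10.27 and 10.40 in control (fell by 5.57 ± 0.18, adjusted p = 1.58e-13). CENPE, a kinetochore motor, was at least 34.8-fold lower. In the spindle checkpoint, which delays anaphase, 10 of 11 were lower. MAD2L1 of that checkpoint read 8.96, 5.16 and 5.86, against 13.28, 13.11 and 13.16 in control (fell by 6.52 ± 0.62), and BUB1B read 6.69, 4.56 and 5.05, against 11.34, 11.25 and 11.24 in control (fell by 5.84 ± 0.34). For both, replicate 1 kept more signal than replicates 2 and 3, while no overexpression array reached a control.

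Mitotic kinases and cyclins were lower in 19 of 19. NEK2, a centrosome kinase, read 5.18, 4.84 and 5.08 in overexpression, against 11.30, 11.35 and 11.32 in control (fell by 6.29 ± 0.10, adjusted p = 4.57e-17). CCNA2, the S and G2 phase cyclin, read 6.13, 6.005 and 6.06, against 10.90, 10.86 and 10.78 in control. AURKB, the kinase of the chromosomal passenger complex, read 4.87, 4.68 and 4.97, against 9.81, 9.82 and 9.62 in control. Each of these genes was at nearly the same level on the 3 overexpression arrays. CDK1, the kinase that starts mitosis, was different: it read 11.24, 5.53 and 6.69, against 13.39, 13.47 and 13.34 in control (fell by 5.58 ± 0.91, adjusted p = 7.85e-05), with replicate 1 far above replicates 2 and 3 and below every control. PBK, a mitotic kinase, read 7.49, 4.24 and 5.22, against 12.46, 12.47 and 12.42 in control, and CKS1B, a subunit of CDK complexes, read 7.77, 7.93 and 7.76, against 11.51, 11.71 and 11.43 in control.

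Spindle motors and microtubule regulators were lower in 27 of 27 (median -3.90). ASPM, a spindle pole protein, was at least 45.5-fold lower, and HMMR, a spindle assembly factor, read 5.53, 3.79 and 4.43 in overexpression, against 11.43, 11.26 and 11.48 in control. All 8 cytokinesis genes were lower (median -5.34). CEP55, the midbody protein, read 3.98, 2.30 and 2.50, against 10.11, 10.16 and 10.11 in control, at least 69.8-fold lower. Of 19 genes of chromosome structure 17 were lower and 1 higher. TOP2A, the topoisomerase of dividing cells, read 4.78, 3.85 and 4.19, against 11.02, 11.28 and 11.12 in control (fell by 6.86 ± 0.17). SMC2, a condensin core subunit, fell by 4.98 ± 0.23. WAPL, the cohesin release factor, was the member called higher (0.64 ± 0.19, adjusted p = 0.00893), a call lost with the LNCaP arrays alone (adjusted p = 0.101).

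**Figure D3:**
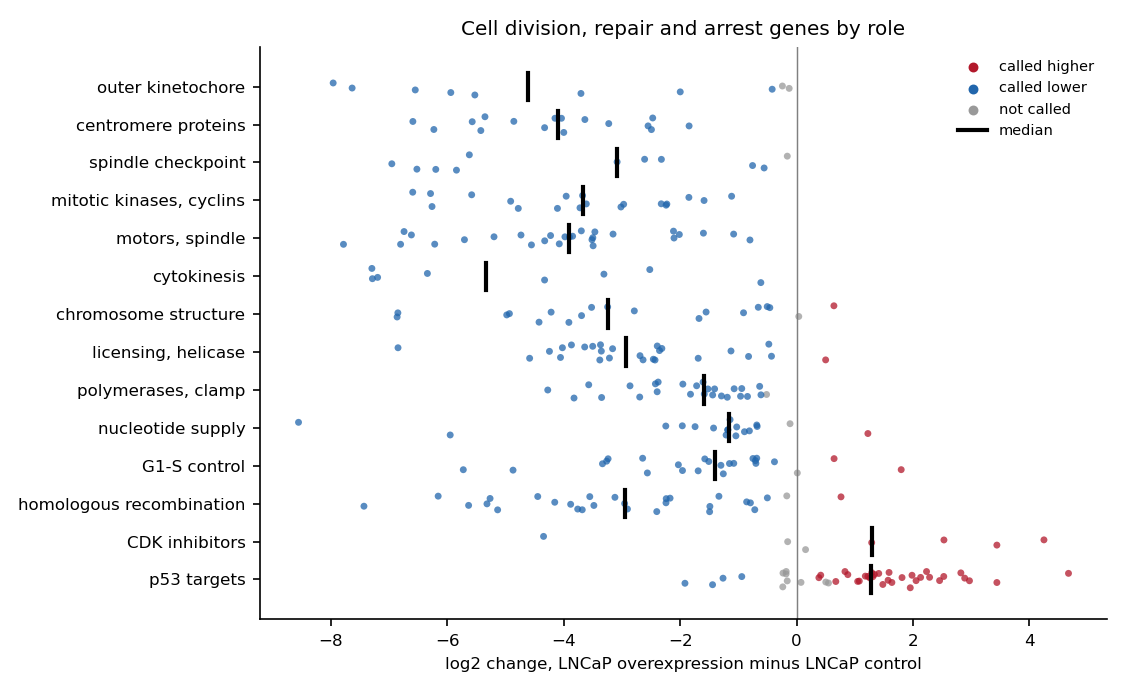
Log2 change (x axis, overexpression minus control) of each tested gene by role (y axis), coloured by call, with black bars at the median of each role. Nearly all points of the mitotic, replication and recombination roles lie left of 0, with medians from -5.34 for cytokinesis to -1.16 for nucleotide supply, while most CDK inhibitors and p53 targets lie right of it.

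Promoters of these genes are known for CCAAT boxes, bound by NF-Y, and for the cell cycle homology region, bound by MuvB complexes. RefSeq promoter sequence (GRCh38.p14) of 250 bases before the first listed start was available for 93 of the 110 tested genes. The cell cycle homology region, searched as TTTGAA or TTCGAA on both strands, was found in 38 of 93 (40.9%), beside 14.6% of all 27305 promoters and 9.65% of the promoters of 9977 genes tested. At least 2 CCAAT boxes, on either strand, were found in 36 of 93 (38.7%), beside 10.0% of all promoters. Such matches describe letters and are not shown to be bound here, and these shares describe the list. Among genes called by at least 2-fold, the cell cycle homology region was in 195 of 1200 promoters of those lower (16.2%) and 105 of 1312 of those higher (8%). Replication and recombination genes, which mostly fell as well, had it in 5 of 60 (8.33%) and 3 of 26 promoters (11.5%). The promoters of CCNB2, the mitotic cyclin B2, and TOP2A are printed because both genes fell by over 6 on the log2 scale and carry both motifs, with CCAAT boxes and cell cycle homology regions in capitals.
CCNB2, chr15:59104896-59105145, plus strand: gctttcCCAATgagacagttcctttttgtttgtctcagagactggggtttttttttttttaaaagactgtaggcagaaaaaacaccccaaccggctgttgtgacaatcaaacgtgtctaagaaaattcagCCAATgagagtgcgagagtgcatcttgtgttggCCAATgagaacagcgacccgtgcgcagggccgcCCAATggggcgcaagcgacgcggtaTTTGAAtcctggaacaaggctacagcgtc
TOP2A, chr17:40417897-40418146, minus strand: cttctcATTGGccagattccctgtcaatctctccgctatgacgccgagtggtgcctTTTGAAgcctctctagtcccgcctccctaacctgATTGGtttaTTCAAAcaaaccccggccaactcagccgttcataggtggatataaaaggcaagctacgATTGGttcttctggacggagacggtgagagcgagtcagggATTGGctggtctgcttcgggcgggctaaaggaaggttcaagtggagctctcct
CCNB2 itself read 6.18, 3.93 and 4.32 in overexpression, against 11.50, 11.37 and 11.34 in control (fell by 6.60 ± 0.38, adjusted p = 3.95e-10), with replicate 1 highest and all 3 arrays far below the controls. The ONECUT core, searched as ATCGAT or ATTGAT on both strands, was found in 50 of 1312 promoters of genes called higher by at least 2-fold (3.81%) and in 52 of 1200 called lower (4.33%), beside 3.64% of the 9977 genes tested.

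DNA replication genes fell by less and more evenly over the arrays. Of 70 tested 66 were lower and 2 higher (median -1.78), and 63 and 2 with the LNCaP arrays alone. MCM2, a subunit of the replicative helicase, read 4.50, 4.95 and 4.88 in overexpression, against 8.76, 8.96 and 8.77 in control (fell by 4.06 ± 0.12, adjusted p = 7.84e-14). ORC6, of the origin recognition complex, read 7.84, 7.59 and 8.21, against 12.14, 12.16 and 12.09 in control (fell by 4.25 ± 0.13), and GINS2, of the helicase activator GINS, read 3.84, 4.19 and 3.98, against 8.51, 8.82 and 8.44 in control (fell by 4.59 ± 0.16). The overexpression arrays of these genes lay close to each other and far below control. RFC3, of the clamp loader, fell by 3.82 ± 0.16 and POLA1, of the primase-polymerase, by 3.57 ± 0.19. PCNA, the sliding clamp itself, read 11.21, 12.54 and 12.34, against 12.55, 12.60 and 12.49 in control, and was not called (-0.52 ± 0.22, adjusted p = 0.0554).

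Among enzymes of nucleotide supply, 16 of 18 were lower. RRM2, the S phase subunit of ribonucleotide reductase, read 6.75, 2.14 and 3.17 in overexpression, against 12.55, 12.67 and 12.51 in control (fell by 8.56 ± 0.73, adjusted p = 9.19e-08), and TK1, thymidine kinase, read 4.91, 3.70 and 4.24, against 10.08, 10.42 and 10.20 in control (fell by 5.95 ± 0.22). RRM2B, the p53-induced form of that subunit, went the other way, with 12.001, 11.85 and 11.80, against 10.74, 10.48 and 10.75 in control (rise of 1.23 ± 0.11, adjusted p = 6.59e-08). ORC2, of the origin recognition complex, was called higher as well (0.50 ± 0.14, adjusted p = 0.00546), but was lower when probe sets were averaged by their median (-0.28, adjusted p = 0.0375).

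G1-S regulators were lower in 21 of 24 and higher in 2. E2F8, a repressive E2F, read 4.28, 3.38 and 3.21 in overexpression, against 9.32, 9.34 and 9.39 in control (fell by 5.73 ± 0.21). FOXM1, the forkhead factor of mitotic genes, read 3.89, 4.01 and 3.75, against 8.84, 8.81 and 8.61 in control (fell by 4.87 ± 0.12, adjusted p = 1.05e-14), with the same low level on each array. MYBL2, its MuvB partner, was at least 4.14-fold lower. The D cyclins differed: CCND2 was at least 1.91-fold higher (3.96, 5.38 and 5.46, against 3.09, 3.26 and 3.06 in control), CCND1 rose by 0.65 ± 0.08, and CCND3 was not called.

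Recombination and Fanconi genes, which repair breaks and crosslinks in S and G2 phase, were lower in 27 of 29 (median -2.95). FANCI, of the Fanconi ID complex, read 6.26, 5.18 and 4.95 in overexpression, against 11.63, 11.66 and 11.58 in control (fell by 6.16 ± 0.23), and BRIP1, a helicase, read 4.05, 2.34 and 3.00, against 8.82, 8.90 and 8.58 in control (fell by 5.64 ± 0.28). MUS81, a structure-specific nuclease, was the member called higher (0.76 ± 0.16, adjusted p = 0.0007).

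Of 7 CDK inhibitors tested 4 were higher and 1 lower, and 2 were lower without replicate 1. CDKN1C, the inhibitor p57, read 10.68, 9.92 and 10.21 in overexpression, against 6.23, 5.77 and 6.05 in control (rise of 4.25 ± 0.17, adjusted p = 3.06e-12), and replicate 1 was the highest. CDKN2B, the inhibitor p15 of CDK4 and CDK6, read 8.08, 6.85 and 7.68, against 4.40, 5.42 and 5.19 in control (rise of 2.53 ± 0.27, adjusted p = 5.1e-07). CDKN1A, the inhibitor p21, read 10.30, 10.73 and 10.72, against 7.19, 6.98 and 7.24 in control (rise of 3.44 ± 0.14). CDKN2D, p19, was higher by 1.29 ± 0.32, a call lost with the LNCaP arrays alone (adjusted p = 0.0546), while CDKN1B, p27, and CDKN2A were not called (-0.15 ± 0.07 and 0.16 ± 0.24). CDKN3, a phosphatase of CDKs that is itself a mitotic gene, read 8.47, 6.99 and 7.21, against 11.95, 11.88 and 11.88 in control (fell by 4.35 ± 0.25).

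p53 targets were higher in 32 of 44 and lower in 4, with a median change of 1.28, higher in 28 and lower in 4 with the LNCaP arrays alone, and lower in 7 without replicate 1. GADD45A, an arrest and repair gene, rose by 2.82 ± 0.28, DDB2, a damage sensor of nucleotide excision repair, by 1.95 ± 0.19, and ZMAT3, an RNA-binding target, by 2.29 ± 0.35. TP53I3, an oxidoreductase, read 9.02, 9.10 and 9.01 in overexpression, against 4.15, 4.78 and 4.18 in control (rise of 4.67 ± 0.15, adjusted p = 2.58e-13), the same on all 3 arrays. PHLDA3, an inhibitor of AKT, read 9.04, 9.89 and 9.75, against 7.07, 7.04 and 7.19 in control (rise of 2.46 ± 0.19). GADD45B read 5.37, 9.57 and 9.03, against 5.07, 5.12 and 5.11 in control, so its call rested on replicates 2 and 3 and was lost with the LNCaP arrays alone (adjusted p = 0.0596). SFN, the arrest protein 14-3-3 sigma, read 6.95, 12.09 and 11.45, against 7.09, 7.09 and 7.37 in control, with replicate 1 just below the controls (adjusted p = 0.00642, and 0.0977 with the LNCaP arrays alone). BTG1, an antiproliferative gene, and CCNG2, an atypical cyclin, fell by 1.44 ± 0.10 and 1.26 ± 0.16.

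In the BCL2 family 11 of 15 were higher and 1 lower, BCL2L11, a call lost with the LNCaP arrays alone. The proapoptotic BH3 gene BIK read 5.95, 8.58 and 8.65 in overexpression, against 5.09, 5.17 and 5.07 in control (rise of 2.62 ± 0.46, adjusted p = 0.000131), mostly on replicates 2 and 3. PMAIP1, NOXA, read 10.55, 12.11 and 11.59, against 9.35, 9.65 and 9.30 in control (rise of 1.98 ± 0.26). BAX, an effector of mitochondrial permeability, rose by 1.26 ± 0.21 and MCL1, a survival member, by 0.95 ± 0.11, while BCL2 and BCL2L1 were not called (0.22 ± 0.19 and -0.16 ± 0.10). BCL2L11, BIM, fell by 0.80 ± 0.21 (adjusted p = 0.00305, and 0.0798 with the LNCaP arrays alone).

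Histone genes rose while division genes fell. Of 22 tested 16 were higher and 5 lower (median 1.29). H2BC5, a core histone H2B gene, read 13.44, 13.08 and 13.08 in overexpression, against 10.11, 10.17 and 10.28 in control (rise of 3.01 ± 0.13, adjusted p = 5.51e-12). H2BC21 read 13.29, 13.77 and 13.55, against 11.11, 11.10 and 11.06 in control (rise of 2.45 ± 0.15). All 3 overexpression arrays of these genes were well above all controls and close to one another. The 5 that fell were H2AZ1, H2AX, MACROH2A1, MACROH2A2 and the linker H1-10. H2AZ1, which encodes the variant H2A.Z, read 13.38, 13.15 and 13.17, against 14.36, 14.41 and 14.35 in control (fell by 1.14 ± 0.06, adjusted p = 2.59e-10), and H2AX, the damage-marked variant, fell by 0.97 ± 0.18. Messages of replication-dependent histones usually end in a stem loop, and 3' labelling primes on poly(A) tails, so these values read polyadenylated copies, and near-identical histone genes may share probes. At least 2 CCAAT boxes were found in 14 of 22 of these promoters (63.6%), beside 10.0% of all promoters. H2BC5 is printed because it rose most and carries the same motifs as CCNB2 above, a gene that fell.
H2BC5, chr6:26157871-26158120, plus strand: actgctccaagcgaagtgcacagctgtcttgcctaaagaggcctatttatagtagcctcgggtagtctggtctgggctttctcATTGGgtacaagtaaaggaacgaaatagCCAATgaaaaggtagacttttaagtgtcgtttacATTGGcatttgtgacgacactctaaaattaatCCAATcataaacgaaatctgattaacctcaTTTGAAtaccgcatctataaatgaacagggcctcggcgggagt

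Interferon-stimulated genes were higher in 32 of 47 and lower in 6 (median 0.91), and in 27 and 4 with the LNCaP arrays alone. They encode sensors, antiviral effectors and the antigen presentation machinery. IFIT3, an effector that binds foreign RNA with IFIT1, read 9.32, 10.39 and 9.88 in overexpression, against 5.88, 5.36 and 5.30 in control (rise of 4.36 ± 0.28, adjusted p = 1.4e-09). IFIT1 read 6.93, 7.72 and 7.28, against 3.75, 3.89 and 4.04 in control (rise of 3.41 ± 0.17), and IFI6, a mitochondrial interferon-induced protein, read 10.63, 12.30 and 12.17, against 6.92, 7.21 and 7.10 in control (rise of 4.62 ± 0.30). Replicate 1 was the lowest of the overexpression arrays in each. The same held for the factors IRF9, with 5.999, 7.05 and 6.92 against 4.43, 4.11 and 4.01 in control, and IRF1, with 4.95, 7.39 and 6.78 against 3.99, 4.07 and 3.90 in control, where replicate 1 rose by less than 1.
The interferon-stimulated response element, searched on both strands, was found in 21 of 37 promoters of this list (56.8%), beside 3.07% of all promoters and 2.20% of the genes tested. This share describes the list. Among genes called by at least 2-fold, the element was in 29 of 1312 promoters of those higher (2.21%) and 22 of 1200 of those lower (1.83%). The IFIT promoters are printed because these effectors rose, with that element in capitals.
IFIT3, chr10:89327747-89327996, plus strand: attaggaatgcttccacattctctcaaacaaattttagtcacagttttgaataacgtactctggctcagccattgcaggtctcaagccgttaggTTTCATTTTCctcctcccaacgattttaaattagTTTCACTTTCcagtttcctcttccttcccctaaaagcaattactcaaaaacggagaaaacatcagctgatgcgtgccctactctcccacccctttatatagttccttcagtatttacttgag
IFIT1, chr10:89392373-89392622, plus strand: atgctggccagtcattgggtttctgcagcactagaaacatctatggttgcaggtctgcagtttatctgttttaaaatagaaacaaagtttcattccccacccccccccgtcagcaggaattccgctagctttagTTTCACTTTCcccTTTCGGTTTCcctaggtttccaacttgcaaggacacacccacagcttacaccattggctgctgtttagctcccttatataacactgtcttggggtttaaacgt

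Not all interferon genes rose. SP100, a nuclear body protein, read 6.67, 3.52 and 3.86 in overexpression, against 7.81, 8.30 and 7.57 in control (fell by 3.21 ± 0.54, adjusted p = 9.31e-05). IFI44 read 5.93, 3.55 and 3.72, against 6.75, 6.44 and 6.09 in control (fell by 2.03 ± 0.42, adjusted p = 0.000496), and OAS3, a synthetase that activates RNase L, fell by 1.71 ± 0.17. MX1 and MX2, dynamin-like restriction factors, were not called (0.28 ± 0.16 and -0.16 ± 0.14). Antigen presentation was more uniform, with 10 of 11 higher and 0 lower (median 1.58). HLA-B, a class I heavy chain, read 10.97, 11.73 and 11.83, against 8.79, 8.80 and 8.84 in control (rise of 2.70 ± 0.22), and HLA-E read 7.74, 8.59 and 8.53, against 5.96, 6.16 and 6.02 in control (rise of 2.24 ± 0.19). TAP1, the peptide transporter, rose by 2.22 ± 0.15, and PSMB9, an immunoproteasome subunit, was at least 1.60-fold higher. B2M, the class I light chain, was higher by 0.16 ± 0.07, a call lost with the LNCaP arrays alone (adjusted p = 0.148). Class I heavy chain genes are similar, so their probe sets may read more than 1 of them.

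Immediate early genes, induced within minutes of growth factor or stress signals, were higher in 18 of 19. EGR1, a zinc finger factor, read 10.83, 11.81 and 11.72 in overexpression, against 5.08, 4.96 and 4.73 in control (rise of 6.53 ± 0.20, adjusted p = 1.36e-13), with all overexpression arrays far above the controls. EGR3 read 5.87, 9.82 and 8.61, against 3.07, 3.57 and 2.89 in control, at least 17.1-fold higher. FOS, a part of the AP-1 dimer, was at least 6.52-fold higher, its partner JUN rose by 1.54 ± 0.10 and the stress factor ATF3 by 2.16 ± 0.17, while KLF4 was not called (-0.32 ± 0.15). IER3, an early response gene of survival signalling, read 6.86, 11.19 and 11.04, against 2.60, 3.03 and 2.76 in control, at least 51.8-fold higher, with replicate 1 about midway between the controls and the other arrays. Feedback genes of ERK signalling were higher in 9 of 14 and lower in 2. DUSP6, an ERK phosphatase, read 5.57, 7.001 and 7.51, against 2.96, 3.46 and 3.14 in control, at least 6.46-fold higher. ETV5, an Ets factor, read 7.42, 7.56 and 8.37, against 3.53, 3.43 and 3.74 in control, at least 13.8-fold higher. PHLDA1 read 11.14, 8.15 and 8.61, against 5.00, 5.08 and 5.23 in control (rise of 4.19 ± 0.49, adjusted p = 1.85e-06), here highest on replicate 1.

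In the NF-kappaB and inflammatory list 10 of 19 were higher and 5 lower. LIF, an interleukin 6 family cytokine, read 5.20, 7.16 and 7.11 in overexpression, against 3.42, 3.27 and 3.20 in control, at least 5.62-fold higher. TNFAIP3, an inhibitor of the pathway, rose by 1.72 ± 0.18, whereas NFKBIA, another inhibitor, fell by 1.64 ± 0.26 and NFKB1 by 1.98 ± 0.30. TNFSF9, a ligand of the TNF family, read 5.67, 9.67 and 9.36, against 5.65, 5.41 and 5.24 in control, and IL23A, a cytokine subunit, read 5.57, 8.77 and 8.44, against 4.26, 4.17 and 4.18 in control. Both were high on replicates 2 and 3, and TNFSF9 lost its call with the LNCaP arrays alone (adjusted p = 0.0616).

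Tubulins and neuronal cytoskeleton genes rose. Of 12 tested 9 were higher and 0 lower (median 1.80), with 2 lower without replicate 1. TUBA1A, an alpha tubulin of developing neurons, read 15.03, 13.93 and 14.497 in overexpression, against 8.32, 8.46 and 8.41 in control (rise of 6.09 ± 0.17, adjusted p = 5.01e-14). TUBB6, a beta tubulin, read 10.80, 11.16 and 11.40, against 4.52, 4.24 and 4.14 in control (rise of 6.82 ± 0.16, adjusted p = 4.27e-15), and TUBB2B read 7.39, 8.26 and 8.74, against 2.67, 2.10 and 2.30 in control, at least 17.5-fold higher. TUBB3 differed by far less (0.36 ± 0.09, adjusted p = 0.00212). NEFL, the light neurofilament chain, read 9.68, 11.07 and 10.78, against 6.89, 7.03 and 7.18 in control, and NEFH, the heavy chain, read 2.40, 5.47 and 6.07, against 2.01, 2.23 and 1.83 in control. NEFH was thus high on replicates 2 and 3, and its call was lost with the LNCaP arrays alone (adjusted p = 0.0513). In 22Rv1 control, without the ONECUT2 vector, TUBA1A averaged 12.35, TUBB6 10.9 and TUBB2B 9.11, while NEFL averaged 3.56. Whether RNA or cells of that line added to the tubulin rises was not tested. Guidance and adhesion genes went both ways, 3 of 16 higher and 7 lower, and 4 lower with the LNCaP arrays alone. EPHA3, an ephrin receptor, was at least 17.96-fold lower (3.26, 1.61 and 2.80, against 8.64, 7.88 and 7.98 in control), and SEMA3C, a semaphorin, read 9.20, 4.26 and 5.21, against 10.91, 10.38 and 10.56 in control (fell by 4.39 ± 0.80, adjusted p = 0.000218). L1CAM, a neural adhesion molecule, was at least 2.54-fold higher.

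Synaptic and other neuronal genes were higher in 6 of 11 and lower in 0, with 1 lower without replicate 1. PNMA2, of the PNMA family, read 10.14, 9.89 and 10.09 in overexpression, against 2.84, 2.66 and 3.02 in control, at least 65.8-fold higher, and NPTX1, a secreted pentraxin of synapses, read 7.58, 7.43 and 8.14, against 3.90, 3.09 and 4.41 in control (rise of 3.92 ± 0.24). BEX1, a neuronal adaptor, read 7.22, 9.36 and 9.42, against 4.002, 4.18 and 4.64 in control (rise of 4.39 ± 0.38). Of 24 neuroendocrine genes 6 were higher and 1 lower, beside 34.1% and 28.0% of all genes tested, and 11 higher and 3 lower without replicate 1. ENO2 of this list read 7.66, 9.02 and 9.06, against 3.45, 3.14 and 2.93 in control, at least 23.9-fold higher. PEG10 read 6.57, 7.92 and 7.91, against 4.10, 3.56 and 3.73 in control (rise of 3.67 ± 0.25). SSTR2, a somatostatin receptor, read 5.32, 4.92 and 4.91, against 4.12, 3.75 and 4.26 in control (rise of 1.00 ± 0.18, adjusted p = 0.000159). In 22Rv1 control PNMA2 averaged 9.69, NPTX1 8.35, BEX1 12.3, ENO2 9.07 and PEG10 12.4, while SSTR2 averaged 4.23. Genes that are high in that line without the ONECUT2 vector are thus among these rises. Whether its RNA or cells added to them was not tested. CHGA and CHGB, granule proteins, were not called (0.43 ± 0.29 and 0.31 ± 0.26). CHGB was under 4 on every LNCaP array and CHGA on every control array, so these sizes are not measured ones. EZH2, the histone methyltransferase of the same list that also follows the cell cycle, read 8.28, 7.52 and 8.05, against 10.55, 10.54 and 10.41 in control (fell by 2.55 ± 0.15).

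Some genes of cleavage-stage embryos that the transcription factor DUX4 activates were under 4 in control and high in overexpression, and others stayed low. Of 39 in the list, 15 had a single-symbol probe set and 7 passed the filter, 6 of them called higher and 0 lower. Of the 15, 6 were over 4 on all 3 overexpression arrays, among them KHDC1, which was not called, and PRAMEF10, KLF17 and SLC2A3 were under 4 on every LNCaP array. Members that pass by being high in 1 group had to differ, so these counts support nothing further. MBD3L2 read 12.30, 13.26 and 13.19 in overexpression, against 2.15, 2.21 and 2.39 in control, and PRAMEF12 read 10.76, 10.11 and 10.96, against 2.54, 2.49 and 2.33 in control. FRG2EP read 7.12, 11.11 and 10.74, against 1.95, 1.78 and 1.90 in control, and ZNF280A read 3.99, 7.32 and 7.34, against 3.02, 3.16 and 3.16 in control. MBD3L2 and PRAMEF12 were high on all 3 arrays, while FRG2EP and ZNF280A were lowest on replicate 1. Of 8 members that did not pass, KHDC1L read 3.82, 5.797 and 6.70, against 2.45, 2.54 and 2.50 in control, and CCNA1, the germline cyclin A, read 3.07, 4.89 and 5.19, against 1.92, 1.84 and 1.89. ZSCAN4, a telomere factor of such embryos, read 4.37, 3.72 and 3.96, against 2.23, 2.70 and 2.62, and KLF17 read 2.53, 2.72 and 2.42, against 2.56, 2.52 and 2.70. Several of these genes have many near-identical copies, and a probe set may read more than 1. DUX4 itself was not analysed here.

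Cancer-testis genes were higher in 6 of 11 and lower in 1, with 3 higher with the LNCaP arrays alone. MAGEC2, of the MAGE family, read 5.30, 7.94 and 8.12 in overexpression, against 3.51, 3.49 and 3.91 in control, at least 8.71-fold higher. PAGE1 read 5.67, 7.96 and 8.98, against 4.40, 4.64 and 4.73 in control (rise of 2.95 ± 0.51, adjusted p = 0.000117), and MAGEA4 read 4.26, 5.62 and 8.05, against 3.68, 4.02 and 3.71 in control. MAGEA4 was highest on replicate 3, and its call was lost with the LNCaP arrays alone (adjusted p = 0.0846). TEX19, a germline genome-defence gene, read 8.82, 11.13 and 10.92, against 5.36, 5.35 and 5.18 in control (rise of 4.99 ± 0.39, adjusted p = 1.25e-08).

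Matrix and basement membrane genes were higher in 14 of 25 and lower in 6. COL1A1, the main chain of fibrillar collagen I, read 10.59, 11.996 and 11.74 in overexpression, against 8.12, 7.38 and 7.92 in control (rise of 3.64 ± 0.28, adjusted p = 1.14e-08). LAMB1, a laminin beta chain, read 9.17, 9.39 and 9.66, against 4.52, 4.26 and 4.62 in control (rise of 4.94 ± 0.18), alike on the 3 arrays, while LAMA1, a laminin alpha chain, was at least 9.23-fold lower (3.40, 2.58 and 2.78, against 6.30, 7.52 and 7.798 in control). NID1, the nidogen that links laminin to collagen IV, read 7.995, 9.36 and 10.16, against 1.63, 2.04 and 2.26 in control, at least 36.1-fold higher. ADAMTS1, a matrix protease, read 8.55, 5.02 and 5.29, against 12.13, 11.75 and 11.88 in control (fell by 5.63 ± 0.61). Among genes of epithelial-mesenchymal transition, 3 of 11 were higher and 4 lower, beside 34.1% and 28.0% of all genes tested. VIM, vimentin, read 8.53, 7.79 and 8.31, against 5.77, 5.59 and 5.26 in control (rise of 2.67 ± 0.18), while SNAI2, the repressor SLUG, read 4.71, 3.85 and 3.62, against 7.97, 8.47 and 7.35 in control (fell by 3.87 ± 0.26) and FN1, fibronectin, fell by 2.77 ± 0.34.

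TGF-beta, Notch and Wnt genes each went both ways, beside 34.1% higher and 28.0% lower of all genes tested. The higher shares of the TGF-beta and Notch lists were near that of all genes and say nothing about these lists. Of 33 TGF-beta genes 11 were higher and 6 lower, and 2 lower with the LNCaP arrays alone: ID1 and ID2, inhibitors of differentiation factors, rose by 2.02 ± 0.17 and 2.11 ± 0.19, and SMAD6, an inhibitory SMAD, fell by 0.89 ± 0.16. Of 15 Notch genes 5 were higher, 3 with the LNCaP arrays alone, and 4 lower, among them the receptor NOTCH3, at least 2.91-fold higher, and the target HES1, which fell by 1.72 ± 0.20. Of 15 Wnt genes 9 were higher, 6 with the LNCaP arrays alone, and 2 lower, or 1 with the LNCaP arrays alone or without replicate 3. DKK3, a secreted antagonist relative, read 6.44, 6.09 and 6.51 in overexpression, against 2.79, 2.80 and 3.03 in control, at least 5.09-fold higher, and FZD7, a receptor, rose by 2.09 ± 0.18. Connexins, the channels of gap junctions, were higher in 4 of 5. GJC1 read 9.002, 9.50 and 9.63, against 6.97, 6.71 and 6.61 in control (rise of 2.61 ± 0.16), and GJA3 read 9.71, 6.82 and 7.69, against 3.40, 3.63 and 3.75 in control, at least 16.8-fold higher and highest on replicate 1. Of 40 genes of the liver and gut lineages that ONECUT factors and HNF factors govern, 35 had a single-symbol probe set. Of these 11 passed the filter over all 18 arrays and were tested, 3 higher and 1 lower. HNF4G, among those called higher, read 3.40, 2.83 and 3.50, against 2.69, 2.86 and 2.69 in control, under 4 on every LNCaP array. GATA6, a GATA factor of endoderm, rose by 1.04 ± 0.14 (8.16, 7.89 and 8.36, against 7.20, 6.94 and 7.14 in control).

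Lysosome and autophagy genes were higher in 25 of 36 and lower in 4, and lower in 2 with the LNCaP arrays alone (median 0.75). OPTN, an autophagy receptor, read 8.48, 8.51 and 8.36 in overexpression, against 5.03, 4.99 and 4.88 in control (rise of 3.48 ± 0.16, adjusted p = 1.22e-11). GABARAPL1, an ATG8 family protein, rose by 2.04 ± 0.21, and NPC2, which binds cholesterol in the lysosome, read 12.44, 12.60 and 12.47, against 10.56, 10.53 and 10.55 in control (rise of 1.95 ± 0.07, adjusted p = 8.39e-13). NPC1, its membrane partner, read 9.54, 8.86 and 9.27, against 11.41, 10.88 and 11.25 in control (fell by 1.95 ± 0.16, adjusted p = 2.95e-08). These partners moved in opposite directions on every array. ATG5, of the conjugation machinery, fell by 1.22 ± 0.22.

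Of 24 cholesterol genes 8 were higher and 4 lower, and of 16 fatty acid genes 3 were higher and 9 lower. Over all genes tested 34.1% were higher and 28.0% lower. With the LNCaP arrays alone 2 cholesterol and 6 fatty acid genes were lower. ABCG1, a sterol exporter, read 10.04, 10.81 and 10.74 in overexpression, against 7.87, 6.97 and 7.53 in control (rise of 3.07 ± 0.28), and SREBF1, the lipogenic transcription factor, fell by 1.63 ± 0.21. FASN, fatty acid synthase, read 8.28, 6.27 and 7.35, against 10.32, 8.59 and 9.72 in control (fell by 2.24 ± 0.40, adjusted p = 0.000155), with the highest overexpression array just under the lowest control. SCD, the main stearoyl desaturase, fell by 1.92 ± 0.39, while SCD5, its paralog, read 10.31, 10.05 and 9.97, against 5.54, 5.35 and 5.00 in control (rise of 4.82 ± 0.24, adjusted p = 5.28e-11). ACSL4, which activates arachidonic acid, was at least 10.6-fold higher (7.24, 7.61 and 7.36, against 3.33, 2.53 and 2.75 in control). Genes of zinc and metal handling, of note since prostate epithelium accumulates zinc, were lower in 10 of 17 and higher in 2, with 5 higher without replicate 1. The exporter SLC30A1 read 9.21, 9.64 and 9.75, against 7.31, 7.55 and 7.66 in control (rise of 2.02 ± 0.13), and the metallothionein MT2A read 10.54, 10.999 and 11.18, against 11.66, 12.52 and 12.48 in control (fell by 1.32 ± 0.19). In polyamine metabolism, 6 of 12 were lower and 4 higher. SMS, spermine synthase, fell by 1.22 ± 0.11 and OAZ2, an antizyme, rose by 1.05 ± 0.14.

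Antioxidant genes of the NRF2 programme were higher in 4 of 17 and lower in 7, with 12 lower without replicate 1. HMOX1, heme oxygenase, read 11.70, 11.15 and 9.60 in overexpression, against 4.78, 4.87 and 4.83 in control (rise of 5.99 ± 0.34, adjusted p = 2.59e-10), and here replicate 3 was the lowest. SLC7A11, the cystine importer, read 11.44, 6.86 and 7.36, against 11.91, 11.97 and 11.49 in control, so replicate 1 was at the control level and the call was lost with the LNCaP arrays alone (adjusted p = 0.0558). Of 40 hypoxia and glycolysis genes 10 were higher and 11 lower, beside 34.1% and 28.0% of all genes tested. P4HA2, a collagen hydroxylase, rose by 3.07 ± 0.11 and HK2, a hexokinase, fell by 1.86 ± 0.11. Of 49 unfolded protein and stress genes 20 were higher and 15 lower, beside the same shares of all genes. DDIT3, the stress factor CHOP, rose by 2.15 ± 0.16 and PHGDH, the entry enzyme of serine synthesis, fell by 1.86 ± 0.10. HSPA6, a strictly inducible heat shock protein, read 3.796, 9.15 and 7.95, against 3.61, 3.53 and 3.46 in control, and rested on replicates 2 and 3 (adjusted p = 0.0654 with the LNCaP arrays alone).

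Ribosomal protein genes moved little. Of 21 ribosomal protein genes 3 were lower and 0 higher, with a median change of -0.08, while in ribosome biogenesis 15 of 20 fell and 1 rose, or 3 without replicate 1 (median -0.59). WDR12, a factor of the large subunit, read 9.65, 8.60 and 9.04 in overexpression, against 11.03, 10.94 and 10.94 in control (fell by 1.87 ± 0.18). Respiratory chain genes were higher in 10 of 22 and lower in 1, with 16 higher without replicate 1 and 6 with the LNCaP arrays alone. SDHA, of complex II, rose by 1.26 ± 0.17 and COX6C, of complex IV, by 0.36 ± 0.04. Proteasome genes were higher in 8 of 23 and lower in 8, beside 34.1% and 28.0% of all genes tested, and lower in 5 with the LNCaP arrays alone or without replicate 3.

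Overexpression replicate 1 lay nearer the control than the other arrays for most genes, but not for all gene groups. Among the 3093 genes called with at least a 2-fold change, replicate 1 was the array nearest the control mean in 2181 (70.5%), replicate 2 in 558 and replicate 3 in 354. Leaving out replicate 1 moved the fitted fold of 355 of these genes by over 1.5 times, 327 of them to a larger fold, and raised the calls to 8838. Leaving out replicates 2 or 3 moved 127 and 35 folds that far.

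By gene group, replicate 1 was nearest the control in 24 of 26 interferon-stimulated genes (92.3%), in 9 of 10 luminal transcription factors and in 9 of 10 membrane proteins of the secretory list (90.0% each). In the whole secretory list it was nearest in 25 of 38 (65.8%), under the share of all such genes. This held for 5 of 8 in the secreted protein group, SPDEF included, and 11 of 20 other hormone-responsive genes. The secreted protein group had its lowest median on replicate 1, with -3.30, -2.39 and -2.66. It was nearest in 59 of 96 kinetochore and spindle genes (61.5%), but in 19 of 55 replication genes (34.5%), 4 of 17 G1-S genes (23.5%) and 3 of 13 histone genes (23.1%). The loss of replication transcripts and the rise of histones were thus as large on replicate 1 as on the others, while interferon-stimulated genes lay nearer the control there. The median of the NRF2 list was 0.33 on replicate 1, against -0.76 and -0.68 on replicates 2 and 3, a difference of sign. These are descriptions of 3 arrays, and the cause of the difference was not tested.

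**Figure D4:**
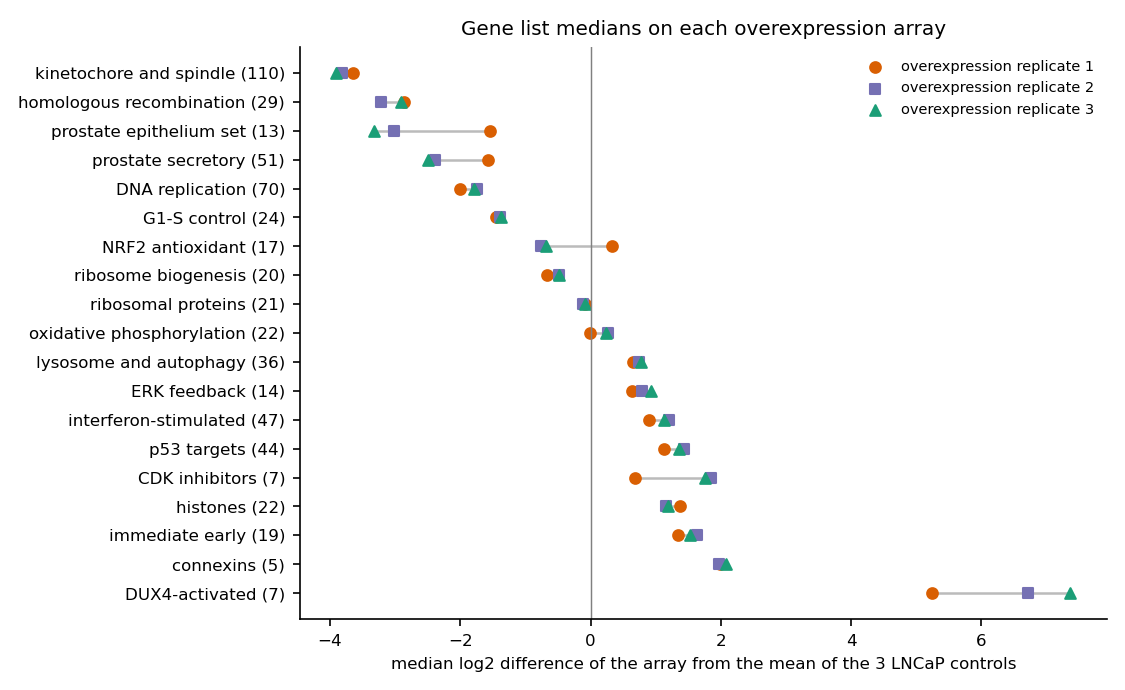
Median log2 difference from the mean of the 3 LNCaP controls (x axis) for 19 gene lists (y axis, genes tested in brackets) on overexpression replicates 1, 2 and 3 (circle, square, triangle). The replicates lie close together for replication, histone and ribosomal genes, while the median of replicate 1 is nearer 0 for both prostate lists, at -1.54 against -3.01 and -3.33 for the prostate epithelium set.

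Of 7557 called genes, 2284 had an SD under 0.2 over the overexpression arrays and 432 an SD over 1. Among the most even rises were QNG1, a queuosine salvage enzyme, with 10.04, 10.23 and 10.42 in overexpression, against 5.17, 5.26 and 4.88 in control, and HTATIP2, with 9.17, 8.95 and 9.16, against 5.08, 5.03 and 4.55 in control. TGFA, a ligand of the EGF receptor, read 9.05, 8.76 and 9.02, against 5.97, 5.81 and 5.56 in control (rise of 3.16 ± 0.16, adjusted p = 4.13e-11). HELLS, a chromatin remodeller of S phase, was among the most even falls, with 5.04, 5.14 and 5.12, against 9.63, 8.84 and 9.30 in control. Among the genes with the widest gap were TMEFF2, a prostate transmembrane protein, which read 10.75, 4.30 and 5.35, against 12.80, 12.80 and 12.84 in control, and GPR158, an orphan receptor, which read 9.81, 4.02 and 4.10, against 11.13, 10.80 and 10.86 in control. SERTAD1, a cyclin D regulator, read 8.31, 11.75 and 11.09, against 5.61, 5.89 and 5.64 in control. In these 3 genes the call held with the LNCaP arrays alone (adjusted p = 0.0204, 0.035 and 0.00514).

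**Figure D5:**
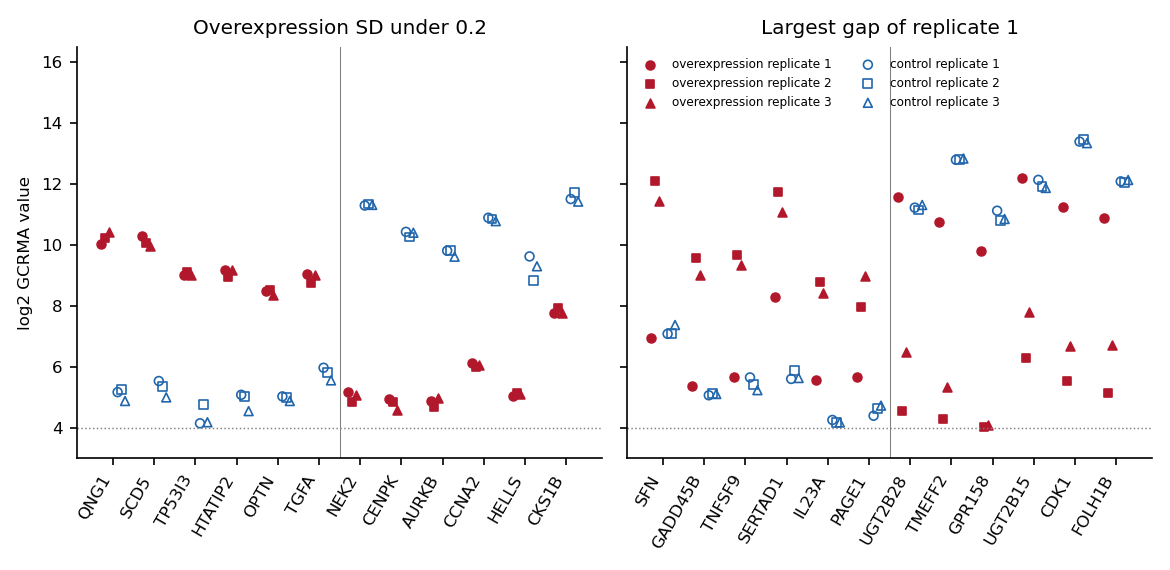
Log2 GCRMA values (y axis) of 12 called genes with an overexpression SD under 0.2 (left) and 12 with the largest gap of replicate 1 (right), rises left of the vertical line and falls right of it in each panel. Overexpression arrays are filled red, control arrays open blue, and circles are replicate 1. On the right, replicate 1 lies nearer the controls than replicates 2 and 3 do, as for UGT2B28 at 11.58 beside 4.54 and 6.48.

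The effect in LNCaP was set against that of ONECUT2 overexpression in 22Rv1 by the difference of the effects in 1 model, which shares no arrays between the lines. It was called in 5434 genes (44.7%), 2199 of them with a more positive effect in LNCaP (18.1%) and 3235 with a more negative one (26.6%). In 89 of 110 kinetochore and spindle genes the effect was more negative in LNCaP, whose median was -3.78, beside -2.06 in 22Rv1. Of 44 p53 targets, 28 had a more positive effect in LNCaP and 4 a more negative one (medians 1.28 and -0.14). In the secretory list 31 of 51 were more negative in LNCaP and 4 more positive (medians -2.35 and -0.87). For lysosome and autophagy genes the effect was more positive in 3 and more negative in 10 of 36 (medians 0.75 and 0.67). The cytoskeleton genes were more positive in LNCaP in 7 of 12. EGR1 rose by 6.53 ± 0.20 in LNCaP and by 2.80 in 22Rv1, a difference of 3.73 ± 0.29 (adjusted p = 5.3e-08). Its mean was 4.92 in LNCaP control and 9.18 in 22Rv1 control, and 11.45 and 11.97 in overexpression, so the lines started at different levels. Of the cytoskeleton genes, TUBA1A averaged 8.40 in LNCaP control and 12.35 in 22Rv1 control, while NEFL averaged 7.03 and 3.56. The part of starting levels in these differences was not tested. CUX2 rose in both lines, by 4.11 ± 0.18 in LNCaP and by 4.06 in 22Rv1 (difference 0.05 ± 0.25, adjusted p = 0.897).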

How the data were processed

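RNA of 18 samples of LNCaP and 22Rv1 cells was measured on U133 Plus 2.0 arrays after 3' labelling. The deposited log2 values were made by the authors with GCRMA, which corrects background, quantile-normalizes and summarises probes, per the submitters' processing notes and the labels. This pulls the arrays to 1 distribution, so a shift of all transcripts cannot be seen. Scanner files and depth were not used here.

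Of 54675 probe sets, 41097 had 1 gene symbol, 1801 several and 11721 none, and 41043 were matched to a current RefSeq symbol. Each gene was read by its probe set with the highest mean, and 12159 of 19775 genes over 4 on at least 3 arrays were tested. limma 3.58.1 in R 4.3.3 fitted 6 group means over 18 arrays, with trended robust moderation and Benjamini-Hochberg adjustment. The fit was checked on simulated data in which each gene had the same spread in every group. The wider spread of the LNCaP overexpression arrays was absent there, so that check cannot speak for the errors of this comparison. Members and the 43 gene lists were chosen with earlier results of these data known.

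Genes were named by rule: ONECUT2, the 12 largest rises and falls over 4 on all LNCaP arrays, up to 3 called members per direction of each role of a list, the 6 most even and the 6 most uneven genes per direction, 22Rv1-high genes, genes with opposite calls in the lines, and markers. MCM2, PCNA, CDKN2D, CDKN1B, CDKN2A, GADD45A, DDB2, ZMAT3, BAX, MCL1, BCL2, BCL2L1, MX1, MX2, TAP1, PSMB9, B2M, FOS, JUN, KLF4, NEFH, FKBP5 and MSMB fall outside that rule, as do the DUX4 list members that did not pass the filter, and were chosen after their values were seen. Alternatives were the LNCaP arrays alone, leaving out each array, a replicate block, array weights, other moderation, centring, floors and filters, and the median over probe sets. Promoters are 250 bases before the first listed start in RefSeq, GRCh38.p14.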

Additional observations from a re-analysis of the deposited data

Results flagged for a closer look

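The results below were singled out because the effect of ONECUT2 overexpression in LNCaP differed from that in 22Rv1, by a test of the difference itself in the limma model over all 18 arrays. With the difference called, 296 genes were higher in LNCaP and lower in 22Rv1, and 380 were lower in LNCaP and higher in 22Rv1. These counts include genes that read under 4 in some groups. DHRS2, a short-chain dehydrogenase, changed by 5.08 ± 0.33 in LNCaP and by -1.02 in 22Rv1, a difference of 6.09 ± 0.47 (adjusted p = 5.5e-08). It read 10.04, 12.05 and 11.59 in LNCaP overexpression, against 6.17, 5.92 and 6.37 in LNCaP control. TNNT1, slow skeletal troponin T, read 4.56, 6.24 and 6.69, against 1.60, 1.77 and 1.46 in control, and its fitted difference between the lines was 5.13 ± 0.50. Its controls were all under 4, so that value is no measured size, and in LNCaP it was at least 3.55-fold higher. CBLN2, a synaptic organiser, differed by 5.02 ± 1.14 and read 9.51, 4.23 and 6.73, against 4.23, 4.05 and 3.61 in control, and its LNCaP call was lost with the LNCaP arrays alone (adjusted p = 0.0951). KITLG, the ligand of the KIT receptor, differed by 4.94 ± 0.44, with a change of 2.53 ± 0.31 in LNCaP and -2.41 in 22Rv1.

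In the other direction, RUNX2 had a fitted difference of -6.70 ± 0.36 (adjusted p = 1.19e-09). It was under 4 on all LNCaP overexpression arrays and averaged 3.43 in 22Rv1 overexpression and 2.72 in 22Rv1 control, so its change in 22Rv1 lies near background and the fitted size is not a measured one. SLC2A10, a glucose transporter family member, had a fitted difference of -5.34 ± 0.30 and read 1.89, 2.38 and 2.85 in LNCaP overexpression, against 3.93, 4.596 and 4.20 in LNCaP control, so its LNCaP values lie near background and give no measured size. CDCA7L differed by -5.08 ± 0.32, and SLC30A4, a zinc transporter, by -4.94 ± 0.34. Groups of 3 arrays were not put to Dixon's check for a single outlying value.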

How the results depend on the processing

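Every count of called genes stayed within 1.5 times its value in 15 alternative fits. The 7557 calls became 5403 with the LNCaP arrays alone, 6079 with array quality weights (a fit whose weights did not fully converge), 6431 with the median over probe sets and 8519 with no filter. Leaving out 1 array gave 6889 to 8838. Of 336 named genes 328 were called, and 282 of those were called in every fit in which they were tested. The LNCaP arrays alone cost 28 of these calls, array quality weights 24 and floored values 8. WAPL and ORC2 reversed with the median over probe sets (-0.18, adjusted p = 0.503, and -0.28, adjusted p = 0.0375), and TAGLN, a smooth muscle marker that was not called, ranged from -0.017 to 0.044 as 1 array was left out, and was below 0 without overexpression replicate 3 (-0.0088) and without control replicate 2 (-0.017). The cause was not tested. Of 42 list medians 32 kept their sign in every fit. The higher share of calls was 54.9% and lay between 51.1% and 57.4% over the alternatives that kept all LNCaP arrays. The median change of all genes was 0.12 with centred arrays and 0.02 with values under 4 set to 4.

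The replicate numbers did not pair the samples: same-numbered overexpression and control arrays had correlations of 0.09, 0.08 and 0.02 in their deviations from the group means. With the replicate number as a block, 7425 genes were called, 4062 higher and 3363 lower. Values under 4 are near background and give only bounds, and 3 arrays a group limit the precision.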
